A study of Caenorhabditis elegans with 5 samples.

Results

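The mitochondrial ribosome of the nematode Caenorhabditis elegans was followed through the mRNAs of its proteins, taken as every row of the count tables whose gene symbol starts with mrpl- (large subunit) or mrps- (small subunit). There were 71 such rows of 45251, 42 of the large and 29 of the small subunit, and all 71 passed the filter on low counts that left 14238 genes for testing. The RNA was extracted from intact worms of strain N2, which is genetically wild type, at a stage given as L4 (the last larval stage) to adult. Worms were kept at 20 °C on agar seeded with Escherichia coli OP50 and spent 24 h on agar holding bisphenol TMC (BPTMC) at 1 mM, in 3 libraries, or with the solvent dimethyl sulfoxide (DMSO), read here as the control, in 2 libraries. The treatment text gives 1 mM for both chemicals. The deposited values were raw counts of 3' tag reads per gene.

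Mitochondria keep a small genome and translate its mRNAs on ribosomes of their own. The RNAs of these ribosomes are transcribed from that genome, but their proteins are encoded in the nucleus, made in the cytosol and imported, so the mitoribosome and the respiratory chain subunits it makes draw on 2 genomes. In C. elegans, knockdown of mitoribosomal proteins, with mrps-5 as the best known case, lengthens life and induces the mitochondrial unfolded protein response. The study's title asks after mitochondria and ageing under BPTMC, and the mRNAs of the mitoribosome bear on the first of these.

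Libraries held 16531114 to 24362712 counts, and the mitoribosomal genes took 54958 to 79167 of these reads in the BPTMC libraries and 83782 and 117666 in the DMSO libraries. Ribosomal RNA genes took 13.6% to 24.7% of the counts in BPTMC and 11.2% and 17.7% in DMSO. Separate cultures are not stated for the replicates, and the p-values may therefore reflect technical spread between samples alone. In whole worms, fewer cells of a type and less RNA per cell cannot be told apart.

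Of the 71 genes, 70 had their symbol in the Ensembl gene models for WBcel235, and all 70 are protein-coding; mrpl-14 was not matched. Chromosome III holds 22 of them (31.0% of the 71 genes, against 13.2% of all protein-coding genes), chromosome I holds 15, II 12, IV 11 and V 10, and X holds 0 (against 13.7% of all protein-coding genes). In C. elegans many neighbouring genes on a strand are transcribed together as operons and then cut apart. For 29 of the 70 genes (41.4%) the upstream protein-coding gene on the same strand ended no more than 500 bases away or overlapped the gene. This held for 20.9% of the 19972 protein-coding genes that have an upstream neighbour on their strand. For 19 of the 70 the gap was 80 to 120 bases (27.1%, against 4.69% of all). On chromosome V, mrpl-4 lies 105 bases downstream of another mitoribosomal gene, mrps-2. On chromosome II, mrps-22 lies 105 bases downstream of dap-3, the gene of another small-subunit protein whose symbol falls outside the mrps- names. The genes are short, with a median exonic length of 755 bases, against 1161 bases over all protein-coding genes. In all, 24 of the 71 overlap another annotated gene or have near-identical counts to a neighbouring row, so reads there may be shared, and whether strand was used in counting is not given in the sources used here.

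Levels are given as CPM, a gene's counts scaled to a common library size, after TMM scaling, which takes the scale from the bulk of the genes. A 3' tag read marks the end of a transcript, so CPM was not divided by length; ranks per kilobase of exon are given beside it. By mean CPM over the 5 libraries the genes spanned 3.08 to 486, with a median of 42.6 in the large and 42.3 in the small subunit. The highest was mrps-21, a small-subunit protein with a bacterial counterpart, encoded on chromosome IV from 4659049 to 4659517 (WBGene00017924). mrps-21 had 422, 449.9 and 446 CPM in BPTMC replicates 1, 2 and 3, against 551 and 559.8 CPM in DMSO replicates 1 and 2. All 3 BPTMC libraries were below both DMSO libraries, the log2 fold change was -0.34 ± 0.32 (± SE), and the gene was also first per kilobase. mrpl-51 (chromosome IV, 12031324 to 12032154), a large-subunit protein with no bacterial counterpart, was the second by CPM and the third per kilobase. It had 271, 256 and 139.6 CPM in BPTMC and 338 and 193 CPM in DMSO (-0.26 ± 0.43), so its groups overlapped. At the low end, mrpl-37 (chromosome II, 13568077 to 13575068) averaged 3.08 CPM and mrps-35 (chromosome V, 18981306 to 18985865) 3.53 CPM over the 5 libraries, 2 proteins that mitochondria have added to the bacterial plan.

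**Figure D1:**
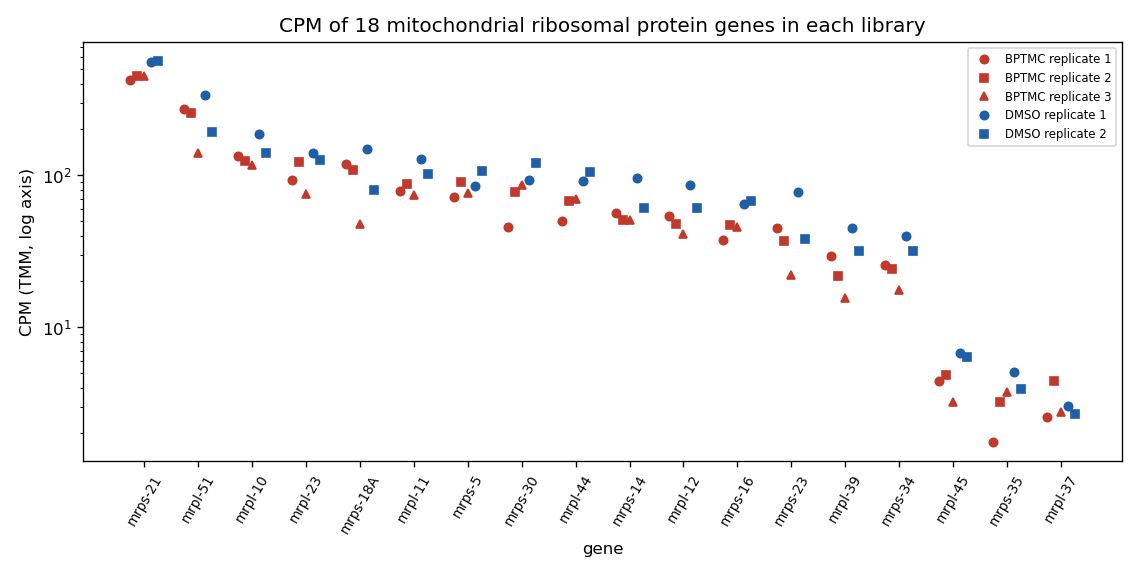
CPM after TMM scaling (log axis) of 18 mitoribosomal protein genes, ordered by mean level, with 1 point per library and the BPTMC libraries left of the DMSO libraries. In mrps-21 the BPTMC points lie at 422 to 449.9 CPM, below the DMSO points at 551 and 559.8 CPM, whereas in mrpl-51 the groups overlap.

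No mitoribosomal gene passed the test of BPTMC against DMSO, yet 70 of the 71 had a negative log2 fold change (BPTMC over DMSO), where 54.5% of all tested genes did. The median log2 fold change was -0.45 over the 71 genes, against -0.087 over all tested genes, and the values lay within a narrow range, from -0.78 to 0.17, with a middle span of -0.54 to -0.33. In edgeR's quasi-likelihood test, with p adjusted over 14238 genes (Benjamini-Hochberg), 0 of the 71 passed an adjusted p under 0.05, in either direction (background 0.105% higher and 0.0% lower), and their adjusted p ran from 0.739 to 0.919. At an unadjusted p under 0.05, 0 were higher and 0 lower (background 7.0% and 0.4%), and DESeq2 and limma-voom called 0 as well (backgrounds 1.67% and 0.00702% higher, 0.0211% and 0.0% lower). The standard error (SE) of a gene's log2 fold change was 0.43 at the median, about as large as the median change itself. In 19 genes (26.8%) every BPTMC library lay below both DMSO libraries, where 9.96% of all tested genes did, and 0 lay the other way round (13.4% of all tested genes).

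**Figure D2:**
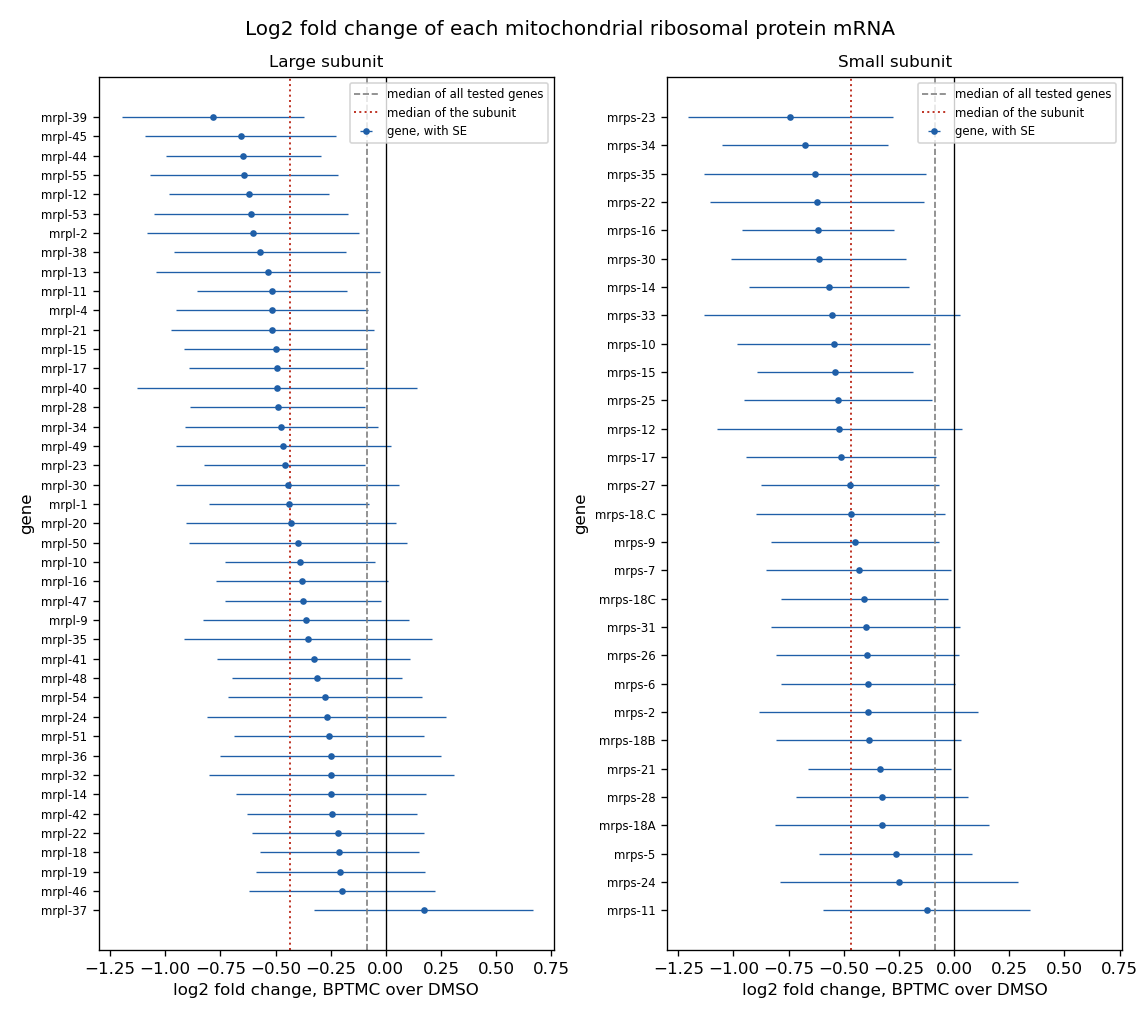
Log2 fold change, BPTMC over DMSO, of each large-subunit and small-subunit gene, with bars of 1 SE; the dotted line is the subunit's median and the dashed line the median of all tested genes (-0.087). Every point but that of mrpl-37 lies left of 0, and many bars reach about as far as the distance from 0.

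These counts rested on particular libraries. Leaving out BPTMC replicate 3 gave 54 genes with a negative log2 fold change, leaving out DMSO replicate 1 gave 50, and leaving out both gave 30, and the median was -0.20, -0.11 and 0.085 in these fits, where the median of all tested genes was 0.044, 0.10 and 0.17; it was -0.65 without DMSO replicate 2. In place of 19, the number with separate groups was 61 when DMSO replicate 2 was left out (22.1% of all tested genes). It was 26 when DMSO replicate 1 was left out (30.2% of all). With DMSO replicate 1 and BPTMC replicate 3 both left out it was 51, in either direction, since 30 genes were negative there. In that fit 35.7% of all tested genes had BPTMC below DMSO, a share in 1 direction that the 51 cannot be set against. The shares of all tested genes count only genes with BPTMC below DMSO. With upper-quartile scaling 4 genes had separate groups (3.81% of all), 63 genes were negative and the median was -0.21. The median of all tested genes was then 0.15. With the replicate number as a block, 1 of the 71 was called lower (mrpl-40, background 4.21%) and 0 higher (background 8.06%). The median was then -0.26 (-0.21 in the large and -0.30 in the small subunit) and 61 genes were negative. No DMSO library carries the number 3, so the block fit compared only replicates 1 and 2 of each group.

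The large and small subunits gave nearly the same values. The median log2 fold change was -0.43 in the large subunit, with 41 of 42 negative, and -0.47 in the small subunit, with 29 of 29 negative. Separate groups were seen in 10 large-subunit (23.8%) and 9 small-subunit genes (31.0%), where 9.96% of all tested genes had BPTMC below DMSO. Summed over its 42 genes, the large subunit had 2200.2, 2033 and 1439 CPM in BPTMC replicates 1, 2 and 3, against 2944 and 2068 CPM in DMSO replicates 1 and 2. The sum for the 29 small-subunit genes was 1670.3, 1669.9 and 1355 CPM in BPTMC, against 2325 and 1870 CPM in DMSO. DMSO replicate 1 was the highest library and BPTMC replicate 3 the lowest for both subunits; the groups overlapped in the large-subunit sum and were separate in the small-subunit sum. The mean in BPTMC was 0.754 times that in DMSO for the large and 0.746 times for the small subunit. The small subunit's share of the summed CPM was 45.6% ± 2.71 (SD, n = 3) in BPTMC and 45.8% ± 2.39 (SD, n = 2) in DMSO, a difference below the spread between libraries. The human namesakes of mrps-30 and mrps-18A sit in the large subunit despite their names; with both counted there, the medians were again -0.43 (44 genes) and -0.47 (27 genes).

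As a share of all reads, the mitoribosomal genes took 0.336%, 0.363% and 0.332% in BPTMC replicates 1, 2 and 3, against 0.483% and 0.423% in DMSO replicates 1 and 2. On this scale the groups did not overlap. Of the reads outside ribosomal RNA genes they took 0.446%, 0.475% and 0.385% in BPTMC, against 0.587% and 0.476% in DMSO. BPTMC replicate 2 and DMSO replicate 2 were then nearly level.

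In the large subunit, mrpl-39 had the smallest p. It had 29.2, 21.5 and 15.6 CPM in BPTMC replicates 1, 2 and 3, against 44.6 and 31.5 CPM in DMSO replicates 1 and 2. All BPTMC libraries were below both DMSO libraries, by a narrow margin between BPTMC replicate 1 and DMSO replicate 2. This gave -0.78 ± 0.41 (log2 fold change ± SE; edgeR adjusted p = 0.739). mrpl-39 (chromosome V, 1821579 to 1823096) is a protein of mitochondrial ribosomes without a bacterial counterpart, and the gene overlaps Y32G9B.1 on the opposite strand, a row with a mean of 65.6 counts against 598 for mrpl-39. mrpl-44 (chromosome III, 9084310 to 9089375), which in mammals is a large-subunit protein related to ribonuclease III, had 50.3, 67.5 and 69.1 CPM in BPTMC, against 90.8 and 104 CPM in DMSO. The groups were separate, with BPTMC replicate 1 lowest and DMSO replicate 2 highest, and the log2 fold change was -0.65 ± 0.35 (edgeR adjusted p = 0.753). It overlaps mccc-2 on the same strand.

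The 3 genes of the stalk, where the elongation factors dock on the large subunit, were among the 19 with separate groups (26.8% of the 71 genes and 9.96% of all tested genes); nothing particular to the stalk was tested. mrpl-12, the stalk protein itself, had 54.02, 47.8 and 40.8 CPM in BPTMC, against 85.6 and 60.6 CPM in DMSO, a log2 fold change of -0.62 ± 0.36. mrpl-11, at the stalk base, had 78.5, 87.1 and 74.0 CPM in BPTMC, against 127 and 102 CPM in DMSO (-0.52 ± 0.34). mrpl-10, which anchors the stalk, had 133, 123 and 117 CPM in BPTMC, against 186 and 139.8 CPM in DMSO (-0.39 ± 0.34). In each of the 3 genes DMSO replicate 1 stood well above the other libraries and DMSO replicate 2 lay closer to the BPTMC libraries. The edgeR adjusted p was 0.789, 0.823 and 0.834. mrpl-12 overlaps W09D10.5, a row with more counts (mean of 1889.6 against 1209), and mrpl-10 overlaps slc-25A32, both on the opposite strand.

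Around the tunnel exit, where the new chain leaves the large subunit, 6 genes were looked at by their known place in other mitoribosomes, mrpl-22, mrpl-23, mrpl-24, mrpl-44, mrpl-45 and mrpl-47, with a median log2 fold change of -0.42. The groups were separate in mrpl-23, mrpl-44, mrpl-45 and mrpl-47 (4 of 6) and overlapped in mrpl-22 and mrpl-24. They were separate in 26.8% of the 71 genes and 9.96% of all tested genes, and nothing particular to the tunnel exit was tested. mrpl-22 had 13.9, 21.5 and 15.97 CPM in BPTMC and 20.5 and 19.3 CPM in DMSO (-0.22 ± 0.39), with BPTMC replicate 2 highest. mrpl-24, which overlaps C09D4.1 on the opposite strand, had 10.9, 11.7 and 5.54 CPM in BPTMC and 16.3 and 6.25 CPM in DMSO (-0.27 ± 0.54). Both groups of mrpl-24 were widely spread. mrpl-23 (chromosome I, 6211270 to 6211885) had 93.2, 123 and 74.9 CPM in BPTMC, against 140.5 and 126 CPM in DMSO (-0.46 ± 0.36), so that BPTMC replicate 2 came close to DMSO replicate 2. mrpl-45, which holds the mammalian ribosome to the inner membrane, was low, at 4.40, 4.85 and 3.20 CPM in BPTMC and 6.76 and 6.35 CPM in DMSO (-0.66 ± 0.43). mrpl-37 was the exception among the 71 genes, with a positive value of 0.17 ± 0.50. It had 2.54, 4.39 and 2.75 CPM in BPTMC and 3.05 and 2.68 CPM in DMSO. BPTMC replicate 2 alone stood high, and without it the log2 fold change was -0.072.

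In the small subunit, mrps-34 and mrps-16 had the smallest p. mrps-34 (chromosome III, 4541420 to 4542452), a protein found in mitochondrial but not bacterial ribosomes, had 25.4, 24.2 and 17.5 CPM in BPTMC, against 39.7 and 31.8 CPM in DMSO. The log2 fold change came to -0.68 ± 0.38 (edgeR adjusted p = 0.764). mrps-16 (chromosome II, 5474373 to 5475420), a protein with a bacterial counterpart, had 37.4, 46.7 and 45.4 CPM in BPTMC, against 64.8 and 67.5 CPM in DMSO, a log2 fold change of -0.62 ± 0.34 (edgeR adjusted p = 0.769). Both genes had separate groups, and in mrps-16 the gap between the groups was wider than the spread within either. mrps-16 overlaps ilcr-2 on the same strand, a row with a mean of 1499.6 counts against 1091, whose log2 fold change was -0.59, so the 2 rows may share reads.

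mrps-14, another bacterial-type protein, had 56.0, 51.0 and 50.6 CPM in BPTMC, against 95.0 and 60.5 CPM in DMSO (-0.57 ± 0.36). mrps-23, which overlaps prp-40 on the opposite strand, had 45.03, 36.9 and 21.9 CPM in BPTMC, against 77.9 and 37.8 CPM in DMSO (-0.74 ± 0.46). The groups of mrps-23 overlapped. mrps-30 had 45.7, 77.5 and 85.7 CPM in BPTMC, against 93.2 and 119.95 CPM in DMSO (-0.61 ± 0.40). The order of the BPTMC libraries thus differed between these genes: replicate 3 was lowest in mrps-23 and replicate 1 in mrps-30. mrps-18A, second in level among the small-subunit names, had 117, 108 and 47.4 CPM in BPTMC and 149 and 79.2 CPM in DMSO (-0.33 ± 0.49), so its groups overlapped, and the gene shares bases with iglr-2 on the same strand. mrps-35 had 1.76, 3.22 and 3.71 CPM in BPTMC, against 5.06 and 3.90 CPM in DMSO (-0.63 ± 0.50), and it overlaps sws-1 on the opposite strand.

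mrps-5 (WBGene00008452; chromosome V, 12563487 to 12565801, 103 bases downstream of sel-1) is described here for its known link to lifespan. It had 72.0, 89.7 and 76.2 CPM in BPTMC and 84.5 and 106 CPM in DMSO, and BPTMC replicate 2 lay above DMSO replicate 1. The log2 fold change was -0.26 ± 0.35 (edgeR adjusted p = 0.834). It was -0.43 when DMSO replicate 1 was left out and -0.070 when DMSO replicate 2 was. mrps-11, also bacterial-type and chosen after its values were seen, had the value nearest to 0 in the small subunit, -0.12 ± 0.47. It was the single gene of the 71 with its highest level in BPTMC replicate 1, at 113 CPM, and it overlaps inx-11 on the opposite strand.

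Proteins were classed as having a bacterial counterpart mainly by the number in the gene symbol, with exceptions after human names. Single genes may be misplaced by this rule. The 43 genes so classed had a median of -0.43 for the log2 fold change. Of these, 43 of 43 were negative and 12 (27.9%) had separate groups. The 28 genes of proteins that mitochondria have added had a median of -0.48, with 27 of 28 negative and 7 (25%) with separate groups. Of all tested genes, 9.96% had BPTMC below DMSO in every library. The difference between the classes was not tested. The added proteins of the small subunit had the lowest of the 4 medians (-0.54, 12 genes), against -0.43 for its bacterial-type proteins (17 genes) and for each class of the large subunit (26 and 16 genes).

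Across libraries the genes fell into 2 main orders. In 51 genes DMSO replicate 1 was highest and BPTMC replicate 3 lowest, an order that 14.5% of all tested genes showed; these were 33 large-subunit and 18 small-subunit genes. In another 15 genes (21.1%) DMSO replicate 2 was highest and BPTMC replicate 1 lowest. This is close to the 21.8% of all tested genes, so the second order was not particular to the mitoribosomal genes. These were 6 large-subunit and 9 small-subunit genes. The 2 sets were formed from these values and are a description. Relative to each gene's own mean, the 51 genes stood on average at 0.17, -0.014 and -0.70 in BPTMC replicates 1, 2 and 3 and at 0.63 and -0.095 in DMSO replicates 1 and 2, in log2 units. For the 15 genes these means were -0.61, 0.041 and -0.017 in BPTMC and 0.12 and 0.47 in DMSO. BPTMC replicate 1 was thus second from the top in the first set and at the bottom in the second, while the median log2 fold change was -0.45 in the first and -0.47 in the second.

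**Figure D3:**
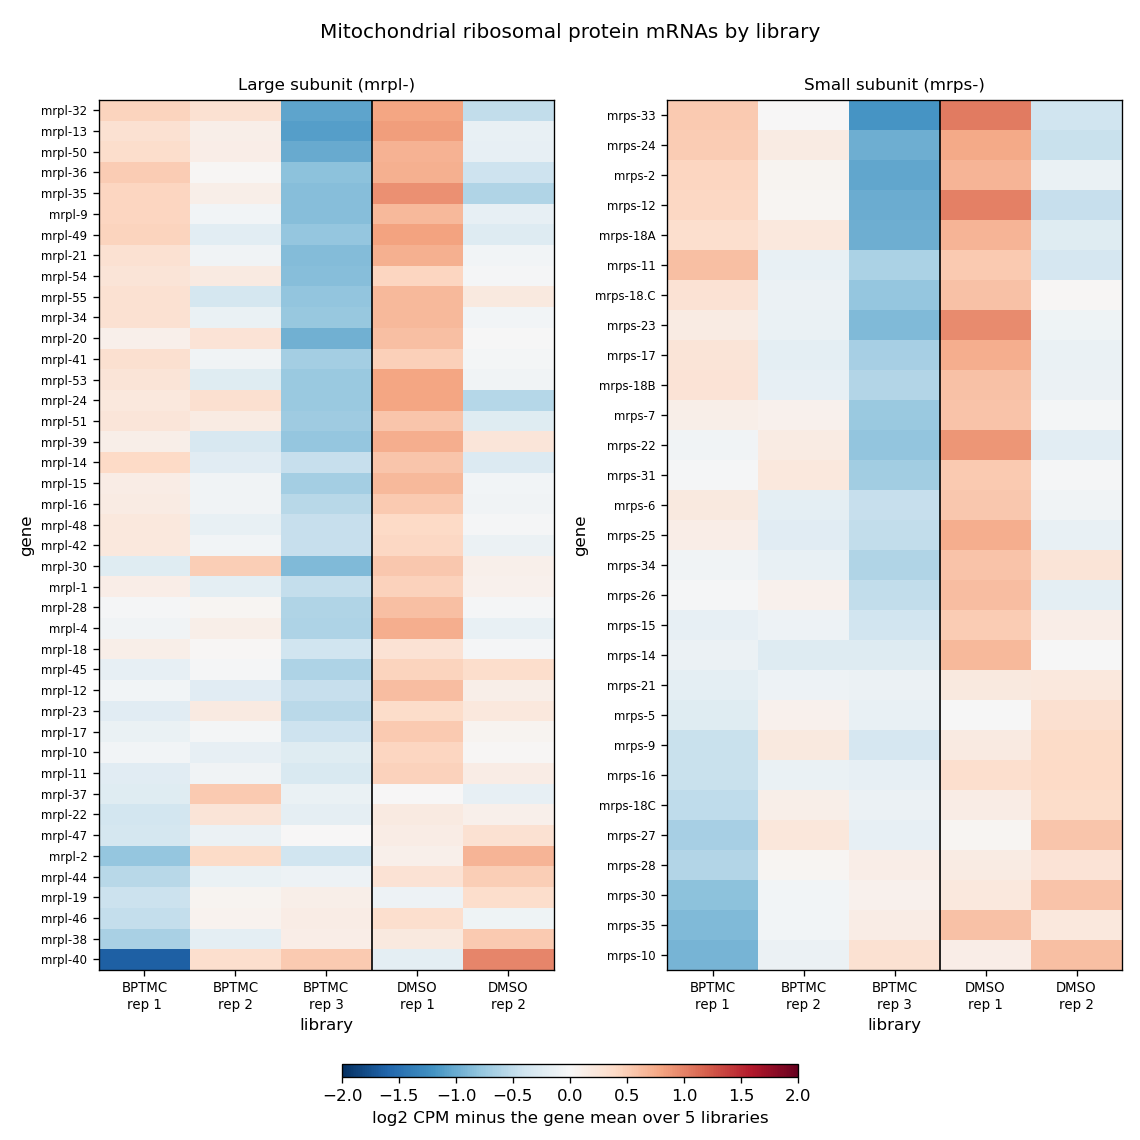
Level of each mitoribosomal gene in each library, as log2 CPM minus the gene's mean over the 5 libraries (red above, blue below), with the BPTMC libraries left of the line and the DMSO libraries right of it. Most rows are highest in DMSO replicate 1 and lowest in BPTMC replicate 3, and the lower rows of each panel, down to mrpl-40 and mrps-10, are lowest in BPTMC replicate 1.

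mrpl-40, chosen after its values were seen, showed the second order most strongly. It had 11.05, 43.7 and 49.5 CPM in BPTMC and 30.1 and 67.8 CPM in DMSO. Its level thus differed more among the BPTMC libraries than between the groups. mrps-33, also chosen afterwards, had the widest gap between BPTMC replicates 1 and 3 in the first order. It had 89.1, 62.8 and 27.6 CPM in BPTMC and 129 and 47.003 CPM in DMSO.

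The set of 15 held longer genes. Its median exonic length was 1078 bases and 9 of 15 were longer than 1000 bases, whereas the set of 51 had a median of 716 bases and 10 of the 50 with an annotated length were above 1000. Over the 70 annotated genes, length and the difference between BPTMC replicates 1 and 3 had a Spearman rho of -0.44, and the same relation over 13372 tested genes gave -0.39. Between DMSO replicates 1 and 2 the values were -0.35 over the 70 genes and -0.35 over all. These are correlations across genes that share the same libraries, and genes are not independent replicates. Length and the log2 fold change of BPTMC over DMSO gave -0.05 over the 70 genes, and the 35 shorter and 35 longer genes had medians of -0.47 and -0.41. The part of gene length in the levels of single libraries was not tested.

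**Figure D4:**
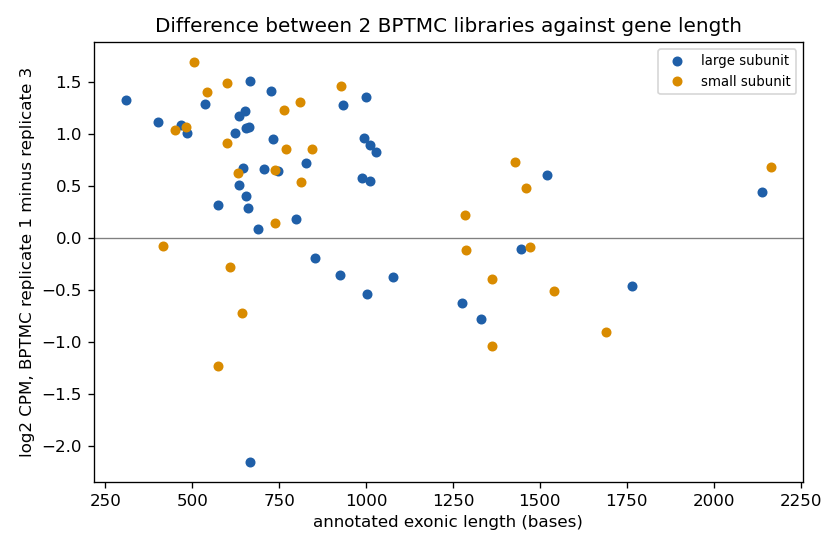
Difference in log2 CPM between BPTMC replicates 1 and 3 against annotated exonic length in bases, 1 point per mitoribosomal gene and coloured by subunit (70 genes). Most genes under 1000 bases lie above 0 and many longer ones lie below it, with mrpl-40 as the lowest point (Spearman rho -0.44).

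Markers of other tissues differed between the same libraries. The 10 germline markers, all detected in every library, summed to 405, 1925 and 2187 CPM in BPTMC replicates 1, 2 and 3, against 1240.3 and 2956 CPM in DMSO replicates 1 and 2, with 10 of 10 log2 fold changes negative. BPTMC replicate 1 was lowest and DMSO replicate 2 highest, as in the set of 15 genes. Sperm markers, dominated by the major sperm proteins, summed to 465, 62.8 and 303 CPM in BPTMC, against 110 and 48.8 CPM in DMSO, with 30 of 31 positive. Intestinal markers summed to 11512 to 24205 CPM in BPTMC and to 9335 and 11264 CPM in DMSO, with 7 of 7 positive; muscle (615 to 1202 CPM, against 552 and 566), neuronal (84.1 to 90.2 CPM, against 70.5 and 85.6) and epidermal markers (355 to 751 CPM, against 540.3 and 635) had 4 of 5 positive each. Some markers were at 0 in part of the libraries: msp-74 in BPTMC replicate 2 and DMSO replicate 2 and spe-9 in DMSO replicate 1 (sperm), and rol-6 in BPTMC replicate 3 and DMSO replicate 2 and bli-1 in BPTMC replicate 2 (epidermis). The part of tissue make-up in the mitoribosomal values was not tested.

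The other genes of mitochondrial translation were grouped by function. dap-3, a GTP-binding protein of the small subunit, had 20.97, 24.7 and 21.7 CPM in BPTMC, against 40.8 and 38.1 CPM in DMSO. The gap between the groups was several times the spread within them, with a log2 fold change of -0.81 ± 0.35, but the edgeR adjusted p was 0.671 (unadjusted p = 0.0479). Of all tested genes, 0.4% were lower at an unadjusted edgeR p under 0.05. nsun-4, which in mammals modifies the small ribosomal RNA and helps to join the subunits, had 7.19, 7.91 and 4.42 CPM in BPTMC, against 12.6 and 8.46 CPM in DMSO (-0.69 ± 0.45). tfbm-1, named for the enzyme that methylates that RNA, had 14.3, 17.8 and 21.6 CPM in BPTMC, against 21.7 and 24.3 CPM in DMSO (-0.36 ± 0.38). The groups were separate in all 3 of these genes, and narrowly so in tfbm-1, where 9.96% of all tested genes had BPTMC below DMSO. rpom-1, the mitochondrial RNA polymerase, had 8.75, 19.6 and 18.5 CPM in BPTMC and 16.3 and 23.9 CPM in DMSO (-0.36 ± 0.47), with overlap.

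Of 5 mitochondrial translation factors 5 were negative, with a median of -0.42, and 0 passed the test; BPTMC replicate 1 was lowest in the 4 elongation factors. gfm-1, the elongation factor that moves the ribosome along, had 6.36, 19.4 and 18.4 CPM in BPTMC and 16.4 and 27.03 CPM in DMSO (-0.56 ± 0.54). tufm-1 and tufm-2, which bring the charged tRNAs, had log2 fold changes of -0.54 ± 0.50 and -0.37 ± 0.41, tsfm-1, their exchange factor, -0.42 ± 0.45, and mrrf-1, the ribosome recycling factor, -0.35 ± 0.38. The groups overlapped in all 5. Of 12 mitochondrial tRNA synthetases, which charge the tRNAs, 11 were negative and 0 passed, with a median of -0.43. pars-2, for proline, had 18.6, 17.6 and 16.3 CPM in BPTMC, against 31.7 and 26.3 CPM in DMSO (-0.73 ± 0.36; edgeR adjusted p = 0.721), and vars-1, for valine, had 15.1, 14.8 and 9.05 CPM in BPTMC, against 19.3 and 17.9 CPM in DMSO (-0.52 ± 0.41). Both had separate groups, as did fars-2. This made 3 of the 12 (25%), where 9.96% of all tested genes had BPTMC below DMSO.

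The mRNAs that the mitoribosome translates, 12 from the mitochondrial genome, had a median of -0.20, 11 of 12 negative, 0 passing and 0 with separate groups. Of all tested genes, 9.96% had BPTMC below DMSO in every library and 13.4% above. The mean level of these 12 mRNAs was 0.63, 0.094 and -1.06 in BPTMC replicates 1, 2 and 3 and 0.69 and -0.36 in DMSO replicates 1 and 2 (log2 CPM minus the mean of the gene). By this mean DMSO replicate 1 was highest and BPTMC replicate 3 lowest, the order of the 51 mitoribosomal genes and of 14.5% of all tested genes. BPTMC replicate 1 was nearly level with DMSO replicate 1 here (0.63 and 0.69), unlike in the 51 genes (0.17 and 0.63). ND2, ND5, COX1, COX2 and COX3 were highest in BPTMC replicate 1, and the other mRNAs in DMSO replicate 1. For the 71 mitoribosomal genes the level was -0.026, 0.0075 and -0.51 in BPTMC and 0.50 and 0.026 in DMSO. The 77 tested cytosolic ribosomal proteins had a median of -0.23, with 75 of 77 negative. In 10 of the 77 (12.99%, against 9.96% of all tested genes) all BPTMC libraries were below both DMSO libraries, and in 2 they were above both (13.4% of all tested genes). Their level was 0.0056, -0.27 and 0.0032 in BPTMC and 0.18 and 0.075 in DMSO, so that BPTMC replicate 2, not replicate 3, was lowest. The 42 nuclear-encoded genes of the respiratory chain had a median of -0.19, with 36 of 42 negative. All BPTMC libraries were below both DMSO libraries in 6 of them (14.3%, against 9.96% of all tested genes) and above both in 1 (against 13.4% of all). No gene of these 3 lists passed the test, and the difference between them and the mitoribosomal genes was not tested.

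**Figure D5:**
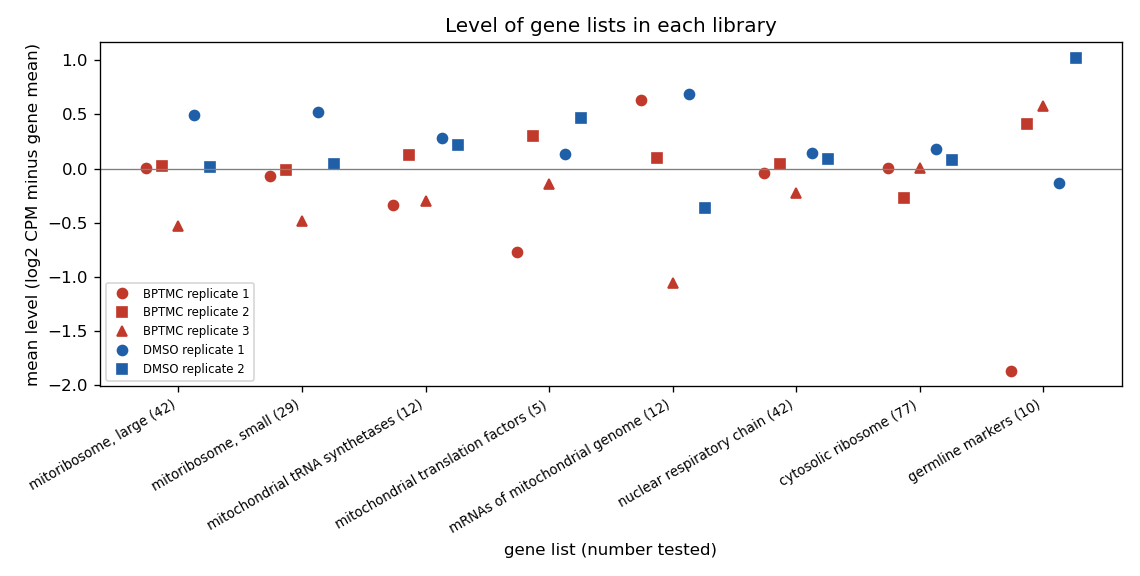
Mean level of gene lists in each library, as log2 CPM minus each gene's mean over the 5 libraries, with the BPTMC libraries left of the DMSO libraries in each list. The large and small mitoribosomal subunits have almost the same 5 points, and mRNAs of the mitochondrial genome share their highest and lowest library. In those mRNAs BPTMC replicate 1 lies almost as high as DMSO replicate 1.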

How the data were processed

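The deposited values are raw counts of reads per gene symbol, 1 table per sample, which the authors made against WBcel235, with Bowtie2 and bedtools named per the submitters' processing notes. For versions, annotation and strand, the answer is not given in the sources used here. Libraries were made from 500 ng of total RNA with a Lexogen QuantSeq kit, per the labels' protocols. BPTMC (n = 3) was compared with DMSO (n = 2) with the edgeR 4.0.16 quasi-likelihood test (R 4.3.3) on counts as deposited, with TMM scaling, filterByExpr (minimum count 10) and Benjamini-Hochberg adjustment over 14238 genes. The SE came from the log2 fold change and the F statistic of the test (its size over the root of F). Levels use log2 CPM with a prior count of 2. Near-identical rows agreed within 5% in every library, with a mean count of at least 20, within 10 rows.

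The genes and lists were chosen with earlier results of these data known. Named were, per subunit, the 5 smallest p, the 3 highest levels and the lowest; positive genes; up to 5 with separate groups; and mrps-5. List symbols without a row were 3 synthetases (cars-2, mars-2, wars-2), 5 factors (gfm-2, mtif-2, mtif-3, mtrf-1, mtrf-1L), 3 others (ptcd-3, mtg-1, mtg-2) and the mitochondrial ribosomal RNAs. Alternatives were other scalings and filters, DESeq2 1.42.0, limma-voom (limma 3.58.1), legacy dispersions, a replicate block, removal of ribosomal RNA genes or of overlapping members, and each library left out.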

Additional observations from a re-analysis of the deposited data

How the results depend on the processing

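With each BPTMC library left out in turn, 0 mitoribosomal genes were called. With any 1 library left out, the median log2 fold change ran from -0.65 to -0.11 (large subunit -0.63 to -0.10, small subunit -0.67 to -0.14). A lone DMSO library was taken to vary as the BPTMC libraries do. Over all the fits with 1 library left out, the number of negative genes ran from 50 to 70. The number with separate groups ran from 16 to 61, while 9.87% to 30.2% of all tested genes had BPTMC below DMSO. In these fits mrpl-37 ran from -0.072 to 0.38, mrps-23 from -1.12 to -0.14, mrpl-51 from -0.56 to 0.19 and mrps-18A from -0.66 to 0.19, and mrps-5 from -0.43 to -0.070; the other 13 named genes lay between -0.98 (mrpl-39) and -0.18 (mrpl-10). Without DMSO replicate 1 and BPTMC replicate 3 together, an alternative chosen after seeing the data, the medians were 0.085, 0.088 (large) and 0.078 (small). In that fit 30 genes were negative and 51 had separate groups in either direction. The share of all tested genes, 35.7%, counts only those with BPTMC below DMSO, so the 51 cannot be set against it. There mrpl-51 (0.44), mrps-18A (0.50) and mrps-23 (0.11) were positive. With upper-quartile scaling 4 genes had separate groups (3.81% of all tested genes). That scaling moved the median of all tested genes to 0.15 and that of the 71 to -0.21 (63 negative). With a filter of at least 5 CPM in 2 libraries, 10 had separate groups (8.41% of all). Without overlapping genes, 46 of 47 were negative and 12 had separate groups (9.96% of all), a smaller set by construction. The labels give a replicate number but do not say whether same-numbered samples of the groups were handled together. The correlation of deviations was 0.67 for replicate 1 and 0.33 for replicate 2, where the 2 DMSO deviations mirror each other. With the number as a block, BPTMC replicate 3 has no DMSO library to be compared with, and the fit rests on replicates 1 and 2. In it 1 gene was called, mrpl-40 (log2 fold change -1.03 ± 0.35, edgeR adjusted p = 0.0326), among 4.21% of all tested genes called lower. The median was -0.26 with 61 genes negative, and mrpl-51 (0.043) and mrps-18A (0.052) were positive. Elsewhere the cause of these differences was not tested. Of 286 alternative values for the 18 named genes, 10 had the opposite sign; since none was called to begin with, an unchanged call says nothing about stability. A gene needed a change well beyond the median SE of 0.43 to be called with 2 DMSO libraries.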
